A study of Mus musculus with 8 samples.

Results

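The Gadd45 family, Gadd45a, Gadd45b and Gadd45g, was followed as 3 genes of 18193 with a symbol on the array, through every probe set that the platform annotation gives to these symbols alone. There were 5 such probe sets of 45101: 1449519_at for Gadd45a, 1420197_at, 1449773_s_at and 1450971_at for Gadd45b, and 1453851_a_at for Gadd45g. The family was picked because its members moved in opposite directions in NIH3T3 cells, so the NIH3T3 values are a description and carry no test, while the B16F10 values were not used in that choice. All 5 probe sets passed the filter on low signal that left 25236 probe sets for testing, but 1420197_at passed it only through NIH3T3: its mean log2(signal + 9) in B16F10 was 5.77, below the filter's 5.87. The platform annotation gives no transcript accession for 1420197_at and 1449773_s_at, so which part of Gadd45b they read is not known here.

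Gadd45 proteins are small nuclear stress proteins, named for their induction by growth arrest and DNA damage. They have no known enzymatic activity and act by binding partners: the proliferation clamp Pcna, the inhibitor p21 (Cdkn1a), the Cdk1 and cyclin B complex, and the kinase Map3k4, which stands upstream of the p38 and JNK stress kinases. Gadd45a is a classical p53 target, Gadd45b is also known as Myd118 and is induced by NF-kB and TGF-beta, and Gadd45g is also known as CR6. Gadd45 proteins have also been linked to active DNA demethylation, through recruitment of repair factors to methylated DNA.

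Total RNA was hybridized to 8 Affymetrix mouse arrays, 1 for each sample. NIH3T3, an embryonic fibroblast line, gave 1 control array and 3 PGC7 arrays (a culture taken before cloning, here called uncloned, and clones 1 and 2), and B16F10, a melanoma line, gave 1 control array and 3 PGC7 arrays (clones 1 to 3). PGC7, also named Stella or Dppa3, is an oocyte and germline factor known for shielding methylated DNA after fertilization, and it was delivered by virus in serum-supplemented culture. The genotype label of the PGC7 samples reads PGC8 and describes all 6 as not yet cloned, so groups follow the titles. Each clone is a population grown from selected cells, no control clone is among the samples, and the labels do not say whether the control cells were exposed to a virus without PGC7.

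On the 4 arrays of each line, the 7 measured melanocyte markers were all above the median signal of 49.3 in B16F10, and 6 of 7 fibroblast markers were in NIH3T3. The summed melanocyte signal was 104710 to 135098 in B16F10 and 624 to 768 in NIH3T3. The fibroblast sum in NIH3T3 was 111260 in the control and 73622 to 81351 in the PGC7 arrays, and in B16F10 it was 511 to 814 over all 4 arrays. Its members went different ways in NIH3T3: Col1a1 had 23293 in the control and 367 to 703 in the PGC7 arrays, while Dcn had 13826 and 16483 to 20066. Summed signals of 4 macrophage markers were low and went with the groups, 300.1 in the NIH3T3 control against 383 to 499 in its PGC7 arrays, and 120.2 in the B16F10 control against 148 to 183 in the clones; their part in the results below was not tested. In NIH3T3 Ptprc and Cd68 were above the control on all 3 PGC7 arrays, whereas Csf1r had 163 in the control and 120 to 164 in the PGC7 arrays, and Adgre1 had 28.9 and 24.0 to 60.2. Epithelial and endothelial sums were at most 398 and 110 on any array. With bulk RNA, fewer cells of a type and less RNA per cell cannot be told apart. Relative to the control of the line, the median log2 signal of the poly-A spike probe sets, which read RNA put in at labelling, was -0.31, -0.26 and -0.55 in the uncloned array and clones 1 and 2 of NIH3T3, and 0.61, 0.41 and 0.61 in B16F10 clones 1, 2 and 3.

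The 3 genes lie on different chromosomes, and their start regions share only some elements, which is why the windows are shown side by side. The windows run from 250 bases before to 50 bases after the annotated start (RefSeq, GRCm38.p6) and are chr6:67037358-67037657 on the minus strand for Gadd45a, chr10:80929841-80930140 on the plus strand for Gadd45b and chr13:51846425-51846724 on the plus strand for Gadd45g. Capitals mark matches, on either strand, to the TATA box (TATAAA), the CCAAT box (CCAAT), the octamer bound by Oct-1, encoded by Pou2f1 (ATTTGCAT), the E-box (CACGTG) and the CARE element bound by Atf4 with C/EBP partners (TGATGCAA).
Gadd45a: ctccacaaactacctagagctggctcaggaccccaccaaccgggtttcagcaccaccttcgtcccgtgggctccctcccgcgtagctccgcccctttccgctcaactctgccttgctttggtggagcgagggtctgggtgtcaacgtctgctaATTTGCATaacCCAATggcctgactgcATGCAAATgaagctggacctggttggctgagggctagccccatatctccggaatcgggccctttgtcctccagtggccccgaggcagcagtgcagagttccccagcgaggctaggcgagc
Gadd45b: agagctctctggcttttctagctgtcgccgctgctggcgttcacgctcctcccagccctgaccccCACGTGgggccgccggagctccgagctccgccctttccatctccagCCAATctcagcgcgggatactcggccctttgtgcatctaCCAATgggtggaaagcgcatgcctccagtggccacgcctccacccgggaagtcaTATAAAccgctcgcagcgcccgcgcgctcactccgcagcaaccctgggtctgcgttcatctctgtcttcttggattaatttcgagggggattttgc
Gadd45g: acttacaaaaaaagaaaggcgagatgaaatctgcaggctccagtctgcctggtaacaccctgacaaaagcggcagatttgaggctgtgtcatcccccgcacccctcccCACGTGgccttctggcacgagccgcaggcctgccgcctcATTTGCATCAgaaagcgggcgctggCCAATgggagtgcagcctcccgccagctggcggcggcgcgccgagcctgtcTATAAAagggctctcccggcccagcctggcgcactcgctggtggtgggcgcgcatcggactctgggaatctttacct

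All 3 windows held a CCAAT box, the motif bound by NF-Y, which 37.4% of 32851 promoter windows of this length hold. The octamer, present in 1.74% of windows, was found in Gadd45a and in Gadd45g and not in Gadd45b. The Gadd45a window held it on both sides of its CCAAT box, 97 to 90 bases upstream of the start in the forward direction and 70 to 63 bases upstream in the reverse direction, with the CCAAT box at 86 to 82. In Gadd45g the octamer lay 103 to 96 bases upstream and overlapped a CARE element at 101 to 94, an element in 0.895% of windows. A TATA box (13.6% of windows) and an E-box (7.15%) were found in Gadd45b and Gadd45g and not in Gadd45a. A GC box (GGGCGG, 35.7% of windows, not capitalised) was found in Gadd45a and Gadd45b. The AP-1 site (TGANTCA, 7.81%), the CRE (TGACGTCA, 1.79%) and the NF-kB consensus site (1.63%) had no match in these windows. The windows held 14, 24 and 21 CG dinucleotides for Gadd45a, Gadd45b and Gadd45g, against a median of 7 over all windows. Of all windows, 63.7%, 80% and 75.2% held fewer than these. DNA methylation was not analysed here.

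In NIH3T3, Gadd45a was higher and Gadd45b and Gadd45g were lower on every PGC7 array than in the control. Signals are given in arbitrary units, after each array was scaled to a trimmed mean of 500, and changes as differences of log2(signal + 9), which understates the change of low signals. Gadd45a (1449519_at) had 255 in the control, 1301 in the uncloned culture, 1181 in clone 1 and 1088 in clone 2. The 3 PGC7 arrays lay close together and far above the control, with a mean 4.66 times the control signal and a mean log2 change of 2.18 ± 0.13 (SD, n = 3).

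Gadd45b was read by 3 probe sets. At each of them all NIH3T3 PGC7 arrays were below the control, as were those of 38.3% of tested probe sets. Probe set 1450971_at had 1361 in the control, 242 in the uncloned culture, 185 in clone 1 and 106 in clone 2. Probe set 1449773_s_at, whose suffix marks probes that can match related transcripts, had 988 in the control, 196 in the uncloned culture, 107 in clone 1 and 103 in clone 2. In both, the control was the highest array by far and the uncloned culture stood above the clones. The mean log2 changes were -2.95 ± 0.57 and -2.85 ± 0.49 (SD, n = 3), and the control signal was 7.65 and 7.30 times the PGC7 mean. The dimmest probe set, 1420197_at, had 169 in the control, 88.8 in the uncloned culture, 61.0 in clone 1 and 73.3 in clone 2. Its change was smaller, -1.11 ± 0.24, in the same direction and with the same culture nearest to the control.

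Gadd45g (1453851_a_at) had 538 in the control, 96.1 in the uncloned culture, 153 in clone 1 and 138 in clone 2. All 3 PGC7 arrays were again below the control, whose signal was 4.17 times their mean, with a mean log2 change of -2.01 ± 0.33 (SD, n = 3). Here the uncloned culture was the array farthest from the control, whereas for the Gadd45b probe sets it was the nearest. For comparison, 28.9% of tested probe sets had all 3 PGC7 arrays above the NIH3T3 control and 38.3% had all 3 below it. For the Gadd45 probe sets, adjusted p-values are not given in this contrast. In it, limma's test called 12.8% of tested probe sets at an adjusted p under 0.05.

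**Figure D1:**
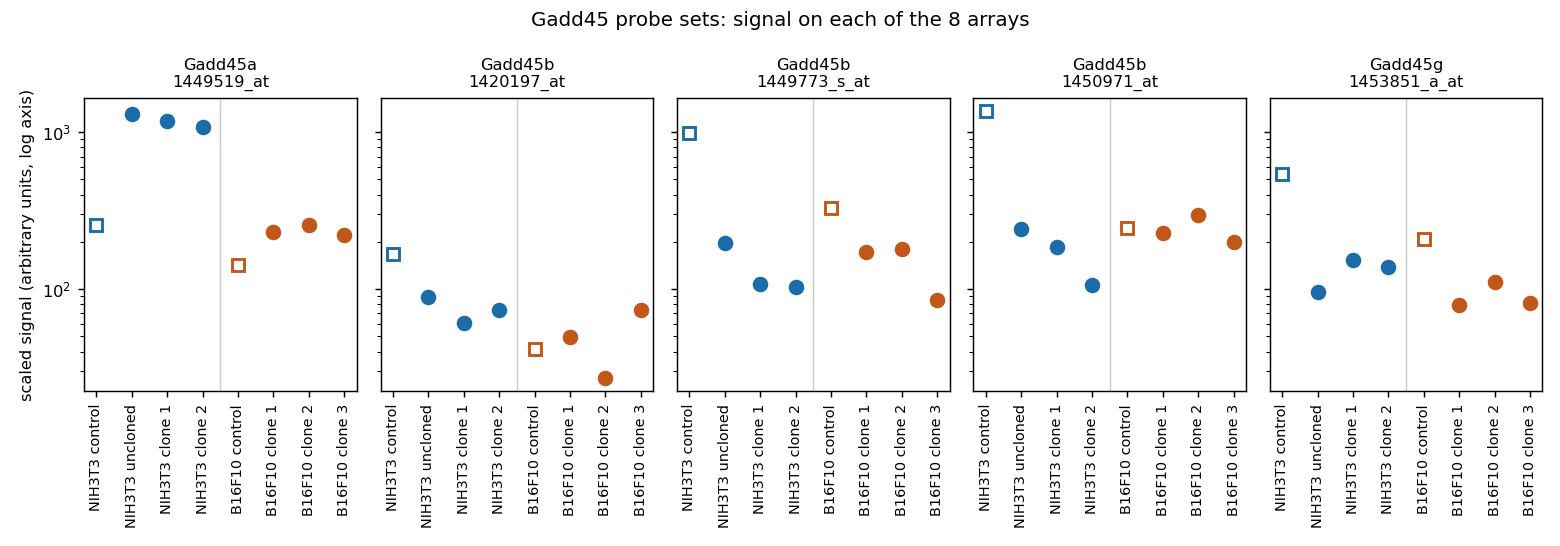
Scaled signal (arbitrary units, log axis) of the 5 Gadd45 probe sets on each of the 8 arrays, with open squares for controls, filled circles for PGC7 arrays, NIH3T3 in blue and B16F10 in orange. Gadd45a is above the NIH3T3 control of 255 on all 3 NIH3T3 PGC7 arrays (1088 to 1301), the Gadd45b and Gadd45g probe sets are below theirs, and the B16F10 arrays span a narrower range.

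Between the control arrays of the lines, the scaled Gadd45b signal was 5.56 times as high in NIH3T3 as in B16F10 at 1450971_at, 2.98 times at 1449773_s_at and 4.06 times at 1420197_at. For Gadd45g the ratio was 2.56 and for Gadd45a 1.78. These ratios depend on the scaling, because the deposited NIH3T3 columns had trimmed means of 143 to 189 against 500.003 in B16F10. With the columns as deposited the 3 Gadd45b ratios were 1.98, 1.06 and 1.45, and the order turned for Gadd45g and Gadd45a, which were 1.10 and 1.58 times as high in B16F10. With quantile normalization all 5 stayed above 1, at 4.85, 2.58 and 2.13 for Gadd45b, 1.90 for Gadd45g and 1.05 for Gadd45a.

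On the PGC7 arrays, Gadd45a was higher in NIH3T3 with no overlap under all 3 scalings, while the overlap of the other genes depended on the scaling. The share of all tested probe sets that separate the lines in this way was not counted. The NIH3T3 arrays were also those the family was picked on, so these ranges are a description and nothing is read from them. In the scaled data Gadd45a had 1088 to 1301 in NIH3T3 and 223 to 255 in B16F10. The ranges overlapped for Gadd45b at 1450971_at (106 to 242 in NIH3T3, 199 to 298 in B16F10), at 1449773_s_at (103 to 196 and 85.8 to 180) and at 1420197_at (61.0 to 88.8 and 27.1 to 73.8), and for Gadd45g (96.1 to 153 and 78.8 to 110). As deposited, Gadd45a still separated the lines (339 to 491 in NIH3T3, 223 to 255 in B16F10), while 1450971_at, 1449773_s_at and Gadd45g no longer overlapped and were lower in NIH3T3. With quantile normalization 1450971_at was also lower in NIH3T3 without overlap (54.1 to 133 against 142 to 207), and the ranges of the other Gadd45b probe sets and of Gadd45g overlapped. Each line has 1 control and arrays of its own scaling, so line and array processing cannot be told apart.

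In B16F10 the changes were smaller than in NIH3T3. The NIH3T3 changes were those the family was picked on, so nothing is read from this difference. Limma's moderated test called 0 of the 5 probe sets at a Benjamini-Hochberg adjusted p under 0.05, against 1.19% of all tested. At an unadjusted p under 0.05 there were 3 of 5 (15.1% of all tested), 1 for each gene, with Gadd45a above the control and the others below. The same 3 had all clones on 1 side of the control, which 69.2% of tested probe sets had. The test used all 8 arrays, and the lone control has no spread of its own and was assumed to vary like the PGC7 arrays.

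Gadd45a had 144 in the B16F10 control and 231, 255 and 223 in clones 1, 2 and 3. The clones lay within a narrow range above the control, with a log2 change of 0.68 ± 0.20 (± SE, 95% interval 0.23 to 1.13, limma adjusted p = 0.149, unadjusted p = 0.00764). All 3 clones were above the control, as were those of 37.0% of tested probe sets. When the arrays were scaled on the poly-A spikes the change was 0.16 (adjusted p = 0.714), and over all 15 alternatives it was above 0, with adjusted p between 0.0556 and 0.714.

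Gadd45g had 210 in the B16F10 control and 78.8, 110 and 81.1 in clones 1, 2 and 3. The control was 2.33 times the clone mean and no clone reached it, as in 32.2% of tested probe sets. The log2 change was -1.16 ± 0.35 (± SE, 95% interval -1.95 to -0.37, limma adjusted p = 0.163, unadjusted p = 0.00936). The direction held in 15 of 15 alternatives and the call was made in 2, on the poly-A spikes (-1.64, adjusted p = 0.0308) and without the uncloned NIH3T3 array, which enters only the shared spread (adjusted p = 0.0485). With the 4 B16F10 arrays alone the adjusted p was 0.0594, and over all alternatives it reached 0.363.

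The Gadd45b probe sets, of which 1450971_at alone has a transcript accession, disagreed in B16F10. At 1449773_s_at the control had 331 and clones 1, 2 and 3 had 172, 180 and 85.8, all below it, with clone 3 the farthest. The log2 change was -1.20 ± 0.48 (± SE, 95% interval -2.29 to -0.12, limma adjusted p = 0.281, unadjusted p = 0.0339), and it was called in 1 of 15 alternatives, on the poly-A spikes (-1.70, adjusted p = 0.0367), with adjusted p up to 0.498.

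At 1450971_at, the brightest Gadd45b probe set, the control had 245 and the clones 229, 298 and 199. The control lay inside the range of the clones, and the log2 change was -0.03 ± 0.41 (± SE, 95% interval -0.98 to 0.91, limma adjusted p = 0.984). At 1420197_at the control had 41.5 and the clones 49.4, 27.1 and 73.8, again on both sides of it and around the filter level, so that this value says little (0.15 ± 0.50, 95% interval -0.98 to 1.28, limma adjusted p = 0.930). Without clone 3 the sign turned at both, to 0.090 at 1450971_at and -0.14 at 1420197_at. Both intervals are wide on either side of 0, so these values do not show that Gadd45b was unaltered.

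**Figure D2:**
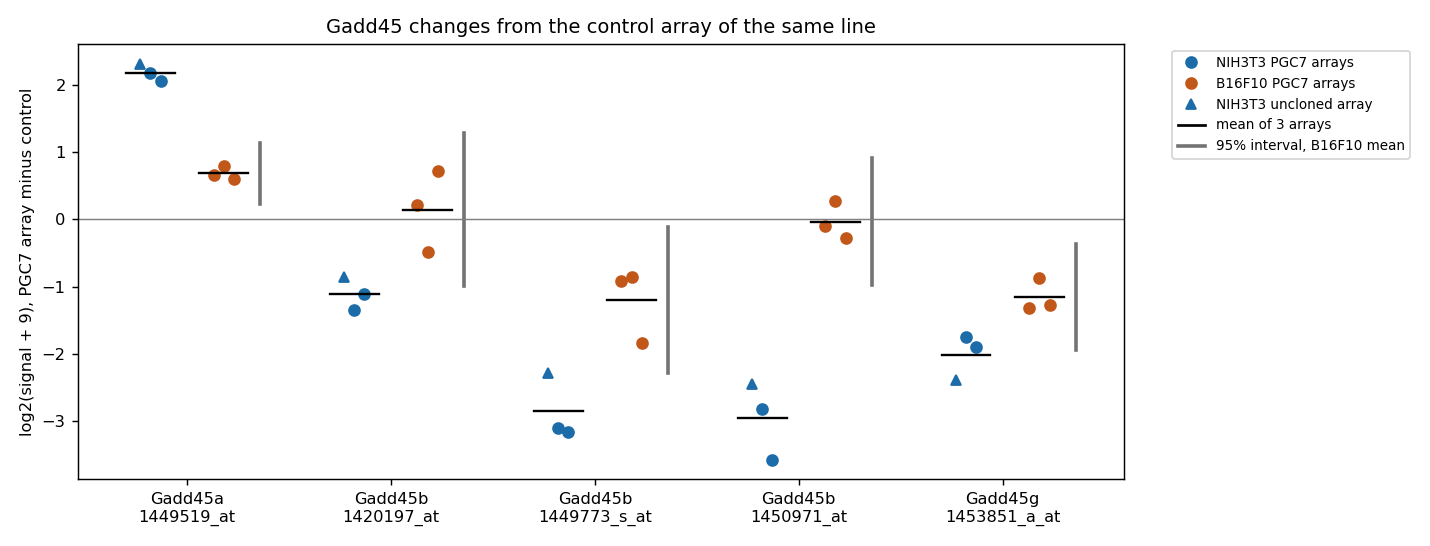
Change of log2(signal + 9) from the control of the same line for each PGC7 array (blue NIH3T3, triangle for the uncloned culture; orange B16F10), with black bars for the mean of 3 arrays and grey bars for the 95% interval of the B16F10 mean. Gadd45a lies above 0 on all 6 arrays, Gadd45g and Gadd45b at 1449773_s_at lie below 0 on all 6, and the B16F10 points of the other Gadd45b probe sets fall on both sides of 0.

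Across the lines, Gadd45a was above the control of its line on 6 of 6 PGC7 arrays (11.8% of tested probe sets), and Gadd45g and Gadd45b at 1449773_s_at were below it on 6 of 6 (13.4%). The NIH3T3 arrays in these counts were those the family was picked on, so nothing is read from them. Within B16F10, which was not used in the choice, the change of Gadd45a exceeded that of Gadd45g by 1.84 on the log2 scale, with 1.67 to 1.97 in the clones. It exceeded that of Gadd45b by 1.89 at 1449773_s_at (1.57 to 2.45), by 0.72 at 1450971_at (0.52 to 0.89) and by 0.54 at 1420197_at (-0.11 to 1.28). With 1 control and 3 clones the exact permutation test has 4 arrangements and cannot give a p below 0.25. It gave that smallest two-sided p of 0.25 for the first 3 of these differences and 0.75 for 1420197_at (0.333 and 0.75 after adjustment over the 4 pairs).

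**Figure D3:**
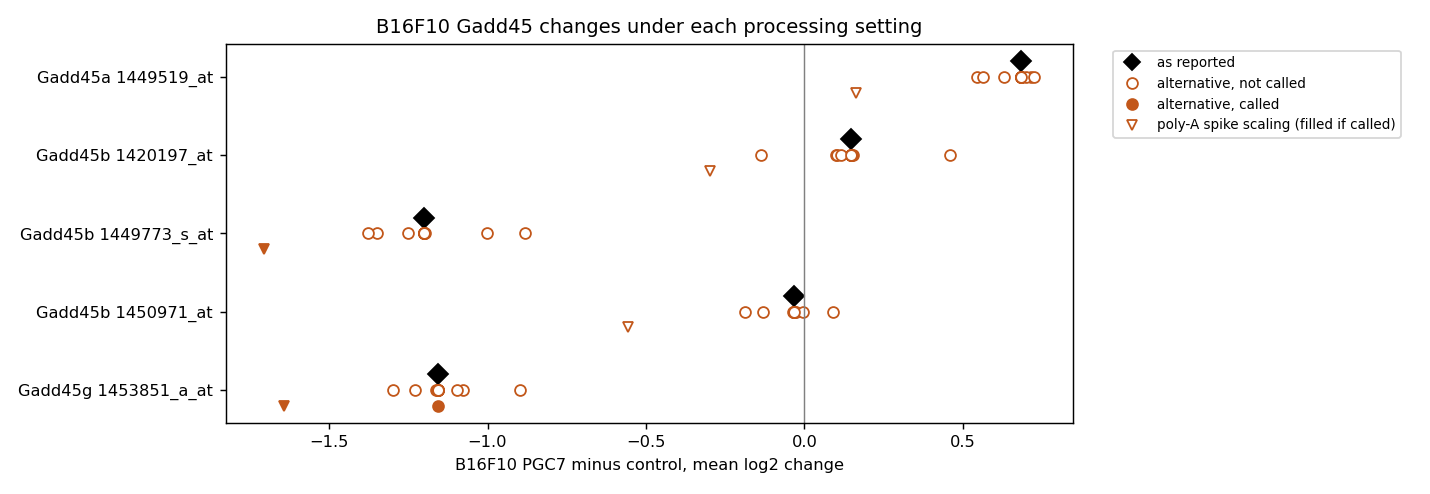
Mean log2 change of each Gadd45 probe set in B16F10, PGC7 clones minus control, as reported (black diamonds) and under each of 15 alternative settings (circles, triangles for the poly-A spike scaling), filled where the adjusted p was under 0.05. Gadd45a stays above 0 and is called in none, and Gadd45g stays below 0 and is called in 2. Over the alternatives 1450971_at runs from -0.56 to 0.090 and 1420197_at from -0.30 to 0.46.

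The genes whose pattern over the 8 arrays was closest to each family member were found by the root mean square difference between log2 values. These values were each centred on the mean of their own line. Each gene entered by its closest tested probe set, so its other probe sets may differ. For Gadd45a, whose own centred values had a root mean square of 0.70, those given here were Fbxo22, coding for a ubiquitin ligase subunit (0.09), and Gpc1, coding for a cell surface proteoglycan (0.13). Gpc1 had 1659 in the NIH3T3 control and 7899, 8020 and 8260 in the uncloned culture and clones 1 and 2, and 4958 in the B16F10 control and 6659, 6585 and 6074 in its clones. Fbxo22 followed the same pattern at low signal, 5.74 against 60.5 to 70.7 in NIH3T3 and 33.3 against 50.9 to 67.4 in B16F10.

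For Gadd45b at 1450971_at (own root mean square 0.96) the closest were the neuronal RNA-binding protein gene Elavl2 (0.15), the zinc finger gene Zfp467 (0.19) and the unnamed transcript D130051D11Rik (0.22). Elavl2 had 350 in the NIH3T3 control and 53.2, 57.5 and 22.6 in the uncloned culture and clones 1 and 2, and was at or under 6.03 on every B16F10 array. Zfp467 had 132 in the NIH3T3 control and 5.47 to 17.3 in its PGC7 arrays, and D130051D11Rik had 85.4 and 2.49 to 14.8. Both passed the filter only through B16F10. For Gadd45g (own root mean square 0.74) they were Bgn, coding for the matrix proteoglycan biglycan (0.15), Rmdn2, coding for a microtubule-associated protein (0.17), and Irs1, coding for the insulin receptor substrate (0.19). Irs1 had 7602 in the NIH3T3 control and 2101, 2309 and 2416 in its PGC7 arrays, and 593 in the B16F10 control and 311, 384 and 312 in the clones. Bgn had 27001 in the NIH3T3 control and 6209 to 8464 in its PGC7 arrays, while in B16F10 it was at or under 23.9.

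**Figure D4:**
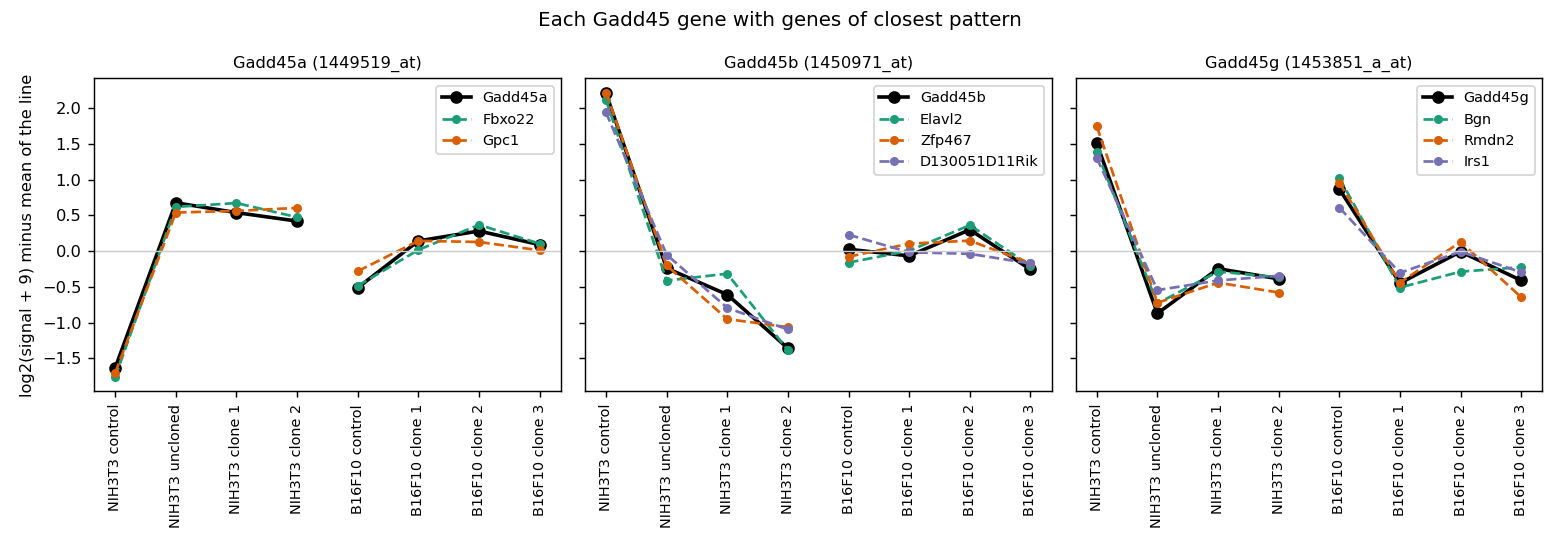
log2(signal + 9) minus the mean of the line on the 8 arrays, for each Gadd45 gene at its brightest probe set (black) and genes of closest pattern (dashed colours), 2 for Gadd45a and 3 for each of the others. The dashed lines lie within a root mean square of 0.09 to 0.22 of the black ones, and most of each pattern is the step between the NIH3T3 control and its PGC7 arrays.

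Other genes of the pathway were read from 9 lists of partners, regulators and targets, with 104 genes of which 89 were tested, each by its brightest tested probe set. In NIH3T3, 11 of the 89 rose and 6 fell by limma's test (6.47% and 6.32% of all tested probe sets), and the median change was -0.16 against -0.07 for all tested probe sets. In B16F10, 15 rose and 0 fell (0.923% and 0.265%), with 36 at an unadjusted p under 0.05, and a median of 0.08 against 0.02. Of these 15, 9 were ATF4 targets. The lists were chosen with earlier results of these data known. The counts here and for each list below are therefore a description, and nothing is read from their excess over all tested probe sets. The B16F10 rises were 8 without any 1 of its clones, and 13 list genes fell on the poly-A spikes. The NIH3T3 rises were 7 without any 1 of the B16F10 clones, which enter the shared spread, and the NIH3T3 falls were 9 and the B16F10 falls 4 without the uncloned array.

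Among 7 tested binding partners and cell cycle targets, Cdkn1a, the p21 gene, rose in NIH3T3 (0.81 ± 0.15, limma adjusted p = 0.0099, called in 13 of 15 alternatives), in a list with 0 falling there and 0 called in B16F10 (4 at an unadjusted p under 0.05). Its signal went from 4517 in the control to 7439 to 8466 in the PGC7 arrays. Of 9 stress kinases downstream of Map3k4, Map2k6, an activator of p38, rose in NIH3T3 (1.53 ± 0.19, limma adjusted p = 0.00188; 490 in the control, 1315 to 1668 in the PGC7 arrays), and 0 were called in B16F10 (2 at an unadjusted p under 0.05). Of 16 genes of active demethylation and repair, 2 rose in NIH3T3: Ing1, a reader of histone methylation that has been reported to bring Gadd45a to its targets (1.15 ± 0.13, limma adjusted p = 0.00106), and the excision nuclease subunit gene Ercc1 (0.92 ± 0.24, adjusted p = 0.0394, called in 7 of 15 alternatives). In B16F10 0 of these 16 were called (3 at an unadjusted p under 0.05).

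Of the 17 tested upstream regulators, 2 rose in NIH3T3, the AP-1 gene Jun (1.80) and the NF-kB subunit gene Rela (0.58, called in 7 of 15 alternatives), and 0 fell. In B16F10 5 rose and 0 fell. They were the immediate early gene Egr1 (3.23 ± 0.25), Brca1 (1.89 ± 0.20, called in 14 of 15 alternatives), Jun (1.57 ± 0.15, called in 14 of 15), Cebpb (0.89, called in 6 of 15 alternatives) and Atf4, named after its value was seen (0.65, called in 5 of 15). Egr1 had 303 in the B16F10 control and 3300, 3032 and 2498 in the clones. Among the other genes first named GADD, Ddit3 (Gadd153) rose in B16F10 from 850 to 1642 to 2342 (1.15 ± 0.20, limma adjusted p = 0.0365, called in 5 of 15 alternatives), and 0 of these 2 genes were called in NIH3T3 (0 at an unadjusted p under 0.05). Ddit3 had 1208 in the NIH3T3 control and 1283 to 1404 in its PGC7 arrays.

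Of 13 tested p53 targets other than Gadd45a, 2 rose and 4 fell in NIH3T3. The rises were Cdkn1a and, named after its value was seen, Mdm2, the p53 ubiquitin ligase gene (1.03 ± 0.13, 907 in the control and 1791 to 1961 in the PGC7 arrays). The falls were Plk2, a polo-like kinase gene (-3.09), Fas, coding for a death receptor (-4.69), the antiproliferative Btg2 (-1.76, called in 10 of 15 alternatives, with its other probe set at -0.86 and not called) and Sesn1 (-1.49, not called with the 4 NIH3T3 arrays alone, adjusted p = 0.0789). In B16F10 1 rose, Trp53inp1 (1.44, called in 6 of 15 alternatives). Of 8 NF-kB targets other than Gadd45b, the chemokine gene Ccl2 rose in NIH3T3 (1.62, called in 12 of 15 alternatives) and 0 were called in B16F10 (3 at an unadjusted p under 0.05). Of 8 TGF-beta targets, Ltbp2 (-4.33) and the matricellular gene Ccn2 (-2.79, called in 13 of 15 alternatives) fell in NIH3T3, Tgfbi (2.23, called in 14 of 15 alternatives) and Pmepa1 (0.84, called in 5 of 15 alternatives) rose, and 0 were called in B16F10 (2 at an unadjusted p under 0.05). Of 11 ATF4 targets, which include Ddit3, 9 rose in B16F10, led by Nupr1 (4.49), Trib3 (4.01), Ddit4 (3.15) and Chac1 (2.88), with a median change of 2.21, and in NIH3T3 1 rose, Atf3 (1.49, called in 9 of 15 alternatives). Over the 28 changes named from the lists, 17 had other tested probe sets of the same gene, 24 in all, of which 15 were called in the same direction and 2 had the opposite sign, for Ddit3 in B16F10 (-0.06) and Ing1 in NIH3T3 (-0.09).

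**Figure D5:**
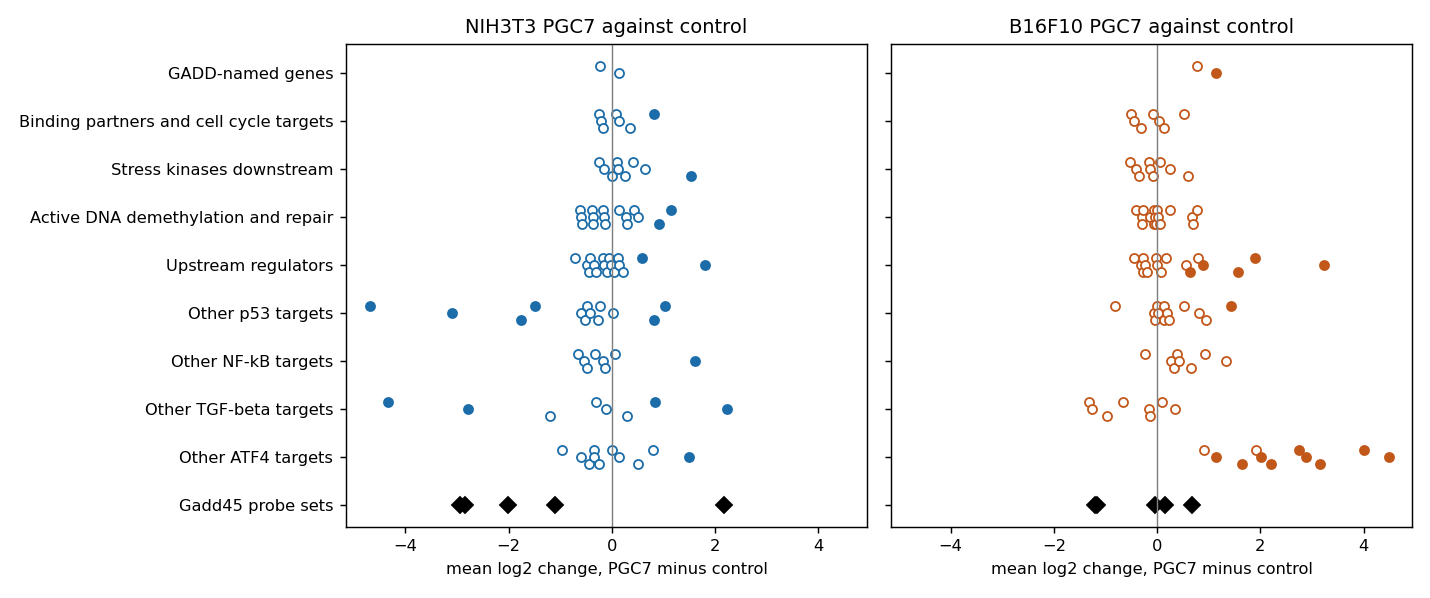
Mean log2 change, PGC7 arrays minus control, of the tested genes of 9 pathway lists (circles, filled where the adjusted p was under 0.05) and of the 5 Gadd45 probe sets (black diamonds, shown without a test), in NIH3T3 (left) and B16F10 (right) on 1 shared axis. In NIH3T3 called genes of the p53 and TGF-beta lists lie on both sides of 0, and in B16F10 the 15 called genes all lie above 0.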

How the data were processed

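The deposited values were linear signal intensities, 1 per probe set and array, made by the authors with MAS5 per the submitters' processing notes; its version and settings are not stated there. No detection calls were used. Each of the 8 columns was multiplied to a trimmed mean of 500 (2% off each end), by 2.65 to 3.49 for NIH3T3 and by 1.00 for B16F10, and taken to log2 after adding 9, close to their 25th percentile. Of 45101 probe sets, 64 controls were left out, as were those whose mean log2 value in each line was below the overall median (signal 49.3). Gene symbols came from the platform annotation, updated through the gene identifier to GRCm38.p6: 34958 probe sets had 1 symbol, 932 several and 9211 none. A model of 4 group means was fitted to all 8 arrays with limma 3.58.1 in R 4.3.3, with an intensity trend (8.50 degrees of freedom), and p-values were adjusted by Benjamini-Hochberg over 25236 probe sets. The tests were two-sided and were checked on simulated data. The simulation gave every array, controls included, the spread among the B16F10 clones. It could therefore not check the assumption that a lone control varies like the PGC7 arrays. Nothing says that the arrays of a group came from separate infections. The p-values therefore reflect just the spread among these arrays, in which differences between clones and cultures cannot be told apart from technical ones. The number of arrays limits the precision.

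The family and the gene lists were chosen with earlier results of these data known. Named genes were all family probe sets, up to 4 called genes per list and line by size, and the 3 closest patterns per family member, of which 1 for Gadd45a is not reported here. Alternatives were the deposited scaling, quantile normalization, poly-A spike scaling, pseudocounts of 1 and 50, 2 other filters, no intensity trend, each PGC7 array left out and each line fitted alone.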

Additional observations from a re-analysis of the deposited data

Results flagged for a closer look

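The change differed between the lines for 18 of the named pathway genes by the interaction term of the limma model (adjusted p = 0.000462 to 0.0499), which called 6.88% of all tested probe sets. These genes were named for a large change in 1 line, so the count of 18 is a description and supports nothing. The 5 Gadd45 probe sets were not tested for it, since they were picked in NIH3T3. Given as the NIH3T3 change minus the B16F10 change on the log2 scale, the regulators had -3.95 (Egr1), -1.98 (Brca1), -1.36 (Cebpb) and 0.85 (Rela). Among the stress kinases Map2k6 had 1.29, and among the genes of active demethylation and repair Ing1 had 1.22. The p53 targets had -4.92 (Fas), -4.04 (Plk2), -1.92 (Trp53inp1), -1.62 (Sesn1) and 1.01 (Mdm2), and the TGF-beta targets -4.43 (Ltbp2), 2.40 (Tgfbi) and 1.50 (Pmepa1). The ATF4 targets had -4.27 (Trib3), -3.98 (Nupr1), -3.22 (Chac1) and -3.15 (Ddit4). Fas, Ltbp2 and Tgfbi passed the filter only through NIH3T3; their B16F10 signals were 1.17 to 10.1, 0.436 to 2.02 and 1.08 to 11.7, so a change there could hardly be measured and their values are close to the NIH3T3 change alone.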

How the results depend on the processing

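In NIH3T3 the 5 Gadd45 probe sets kept their direction in all 8 alternatives that change these values. Gadd45a there was 1.99 as deposited, 2.63 with quantile normalization, 2.55 on the poly-A spikes and 2.02 with a pseudocount of 50. Gadd45b at 1420197_at was -0.81 with quantile normalization, -0.77 on the spikes and -0.82 with a pseudocount of 50, and Gadd45g was -1.66 on the spikes. In B16F10 on the spikes, 1420197_at turned to -0.30 and 1450971_at was -0.56, neither called, while 1449773_s_at (-1.70) and Gadd45g (-1.64) were called. With each PGC7 array left out in turn, the B16F10 values were -0.14 to 0.46 at 1420197_at, -0.19 to 0.090 at 1450971_at (0.090 without clone 3) and -1.30 to -1.08 for Gadd45g, which was called without the uncloned NIH3T3 array at its full value of -1.16. The spike scaling moved the median of all tested probe sets to 0.28 in NIH3T3 and -0.48 in B16F10, and the deposited scaling to -0.19 in NIH3T3.

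The list genes called higher in NIH3T3 numbered 6 as deposited, 5 with no intensity trend, 7 with the line's arrays alone and 7 to 12 with an array left out; those lower, 3 with the line alone and 5 to 9 with an array left out. In B16F10 those higher numbered 5 with no trend and 8 to 20 with an array left out, and those lower 13 on the spikes, 7 with the line alone and 0 to 4 with an array left out. Of 419 values of the 28 changes of named list genes under the alternatives, 333 kept the call, 86 lost it and 0 turned. Over all probe sets, 3229 were called in NIH3T3 and 300 in B16F10, with 1151 and 2196 on the line's arrays alone, 2127 and 70 with no trend, and, with an array left out, 2001 to 6124 and 59 to 1814 (the highest without the uncloned array). In B16F10 quantile normalization gave 192, no filter 177 and the spikes 2295. The cause was not tested. No paired analysis was possible because the control arrays carry no clone number, so the groups compared share fewer than 2 numbers.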
